A study of Mus musculus with 6 samples.

Results

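Arglu1 was examined as a series of cleavage sites along one gene, from sites far upstream of its full 3′ end to sites downstream of it. The members were all minus-strand cleavage clusters between positions 8654000 and 8684000 of chromosome 8 (mm9), where a cluster joins positions at most 24 nt apart in the 6 pooled libraries. There were 85 such clusters among 931826 in all. The locus was chosen with its read counts in these libraries already known, so the levels of its minus-strand clusters are given as a description. Calls from fits across all clusters are given only as counts beside the share of all clusters called, and support nothing. Cleavage sites were mapped by 3′ end sequencing of poly(A) RNA from V6.5 cells, mouse embryonic stem cells of C57BL/6-129 background. There were 3 groups of 2 libraries: untreated cells (treatment None), cells given a scrambled antisense morpholino oligonucleotide (Scrambled AMO) and cells given a U1-targeting AMO. All groups came from the same cell line, and the labels give neither the dose nor the duration of the AMO. The design calls the libraries of a group biological replicates. The files list positions without gene names and no mm9 annotation was used here, so the cell type was not checked against marker genes, and exons and introns are not assigned.

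Arglu1 (NCBI gene 234023) encodes a nuclear protein with an arginine-rich and a glutamate-rich part, known as a modulator of pre-mRNA splicing and as a transcriptional coactivator. Its own transcript is known to be alternatively spliced, with a retained intron. U1 snRNP, a ribonucleoprotein, binds 5′ splice sites during splicing and is also known to hold back cleavage and polyadenylation at poly(A) signals inside genes, so that transcripts reach the full 3′ end. A poly(A) signal is a hexamer a short way upstream of the cleavage position, most often AATAAA. The files give a hexamer for every listed position, AAAAAA among them. Whether each deposited hexamer acts as a signal was not tested.

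The hexamers of the members that carry most reads are printed here because most of the internal sites differed in them from the full 3′ end; those at 8.14 and 6.53 kb did not. Each is the deposited hexamer at the strongest position of the member, read 5′ to 3′ on the transcript, and kb gives the distance from the full 3′ end.
Internal, 17.3 kb upstream: AAGAAA
Internal, 16.2 kb upstream: CATAAA
Internal, 15.5 kb upstream: CATAAA
Internal, 14.8 kb upstream: AAGAAA
Internal, 13.6 kb upstream: AGTAAA
Internal, 8.14 kb upstream: AATAAA
Internal, 6.53 kb upstream: AATAAA
Internal, 0.624 kb upstream: AAGAAA
Full 3′ end: AATAAA
Downstream, 0.269 kb: AATAAA
Downstream, 1.34 kb: TATAAA
Downstream, 1.50 kb: TATAAA
Downstream, 7.78 kb: ATTAAA
Downstream, 8.08 kb: AATAAA
Downstream, 8.71 kb: AATAAA
Downstream, 8.81 kb: AAGAAA
The 3 strongest internal sites that stood higher under U1 AMO than under scrambled AMO in both replicates, at 16.2, 15.5 and 13.6 kb, carried CATAAA or AGTAAA. The full 3′ end and 2 of the 4 sites far downstream carried AATAAA.

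The full 3′ end was taken as the most 3′ member with at least 10% of the reads in untreated cells. It lay at chr8:8666555-8666606 and held 88.6% of the untreated reads at the locus (mean of 2 libraries). The next member by this share, 1.50 kb downstream, held 4.43%. Relative to the full 3′ end, 47 members lay upstream by more than 1 kb, 7 upstream within 1 kb, 11 downstream within 5 kb and 19 downstream beyond 5 kb. The limits of 1 kb and 5 kb were set after the positions were seen. The 5 kb limit corresponds to the 5054 nt between Arglu1 and the next protein-coding gene on that side, Efnb2, in the RefSeq annotation of GRCm38. Efnb2 encodes ephrin-B2, a membrane ligand of Eph receptors, and lies on the same strand. The 19 far downstream members may thus lie in Efnb2 rather than in Arglu1; this was not looked up in mm9. The RefSeq gene length of Arglu1 is 24254 nt, more than the 17394 nt from the full 3′ end to the 5′ edge of the window, so the window may stop short of the gene's start.

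**Figure D1:**
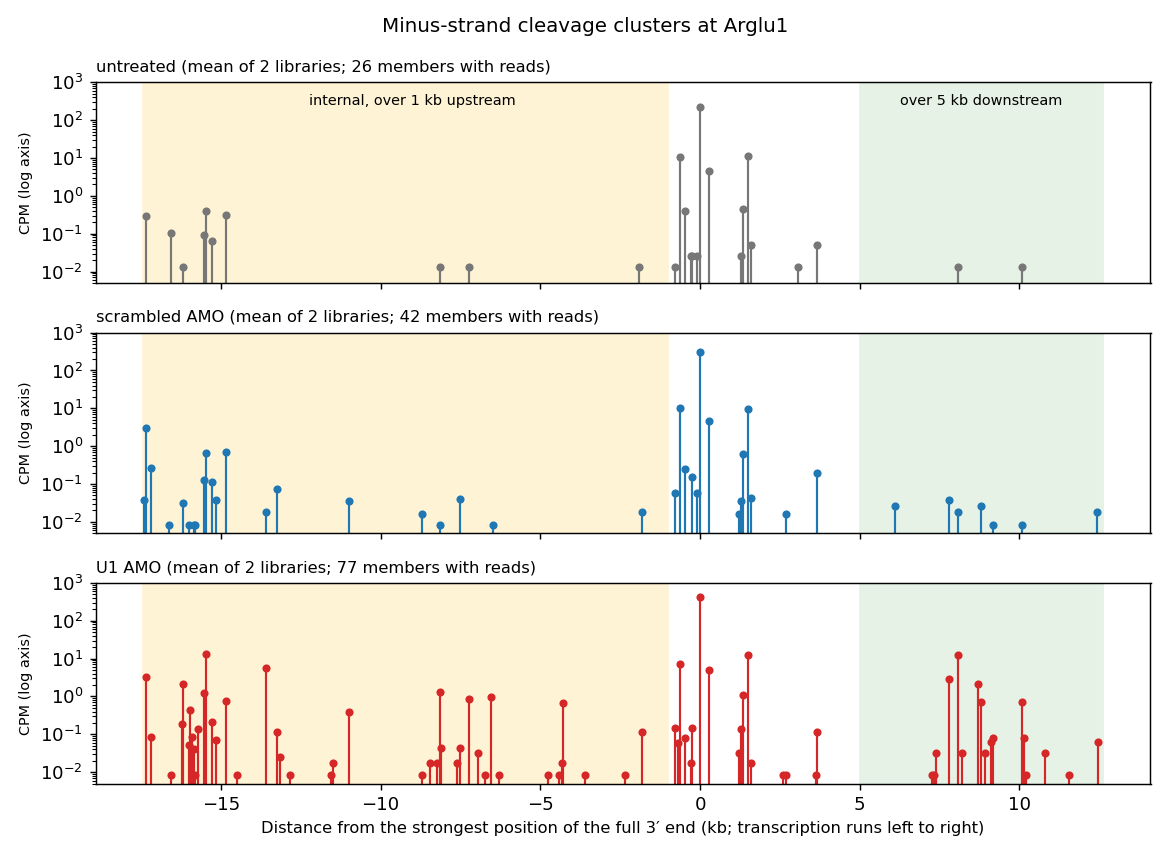
Mean CPM (log axis) of each minus-strand cluster against its distance from the strongest position of the full 3′ end, in kb, for untreated, scrambled AMO and U1 AMO cells (n = 2 libraries each). The full 3′ end is the tallest line in all 3 panels; the shaded stretches upstream and far downstream hold more and taller lines under U1 AMO.

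The 6 libraries held between 15752080 and 62257923 reads. U1 AMO replicate 1 was the shallowest, and both U1 AMO libraries were shallower than scrambled AMO replicate 2. Levels are CPM, counts scaled to the total reads of each library. Read names showed that replicate 1 of both AMO groups shared one sequencing run, as did replicate 2 of both, whereas the untreated libraries had a separate run each. A part due to run therefore cannot be told apart from treatment when untreated cells are compared with either AMO.

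The full 3′ end itself was highest under U1 AMO. It stood at 239.1 and 215.2 CPM in untreated cells, 302.3 and 323.9 under scrambled AMO, and 435.1 and 421.8 under U1 AMO. The groups did not overlap, and the order from untreated through scrambled AMO to U1 AMO held in all libraries. Group means were 227.2 ± 16.9, 313.1 ± 15.3 and 428.4 ± 9.36 CPM (SD, n = 2). The U1 AMO level was 1.44 times the scrambled AMO level for the replicate 1 libraries and 1.30 times for those of replicate 2.

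Among 6432 strong 3′ ends (clusters averaging 10 CPM or more, with none stronger on their strand within 50 kb), the Arglu1 full 3′ end lay at percentile 93.3 of mean level. Its log2 change from scrambled AMO to U1 AMO, 0.45, lay at their percentile 95.5. The median of these clusters was -0.14 on the same scale. Few strong 3′ ends stood higher under U1 AMO by this much. The locus was chosen with these levels known, so the rank is given as a description only.

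Cleavage at the full 3′ end kept its place in all 6 libraries. Position 8666577 was the strongest in each of them and took 48.1% and 58.2% of the member's reads in untreated cells, 44.9% and 43.0% under scrambled AMO and 44.0% and 40.2% under U1 AMO. The share was highest in untreated replicate 2, and the ranges of the AMO groups overlapped. Between 95.6% and 97.3% of the reads were assigned to one AATAAA, 22 nt upstream of the strongest position. A second AATAAA, 17 nt further upstream, accounted for 2.71% to 4.34%.

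**Figure D2:**
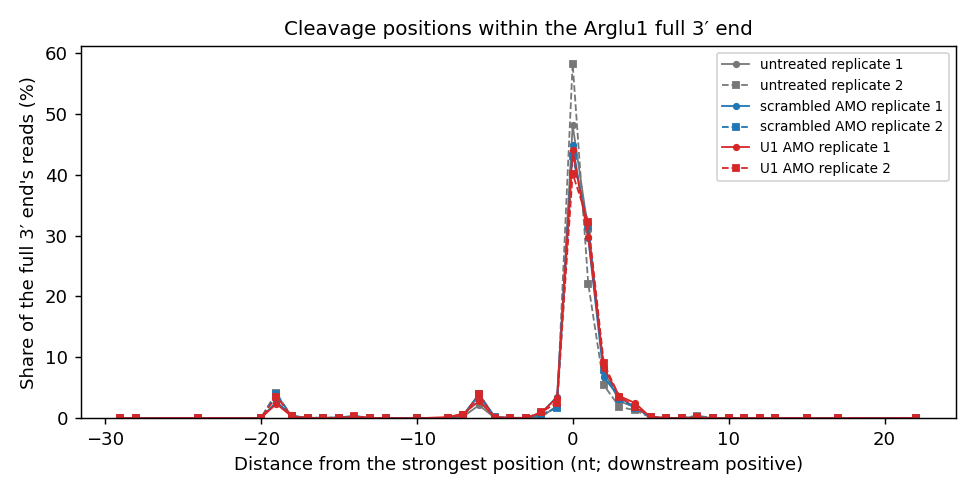
Share of the reads of the full 3′ end (%) at each position, against distance from the strongest position (nt), for the 6 libraries. All libraries peak at the same position; the peak of untreated replicate 2 is the tallest, at 58.2%.

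Upstream of the full 3′ end, the groups differed most in internal cleavage more than 1 kb away. The summed level of these 47 members was 1.43 and 1.21 CPM in untreated cells, 7.23 and 3.39 under scrambled AMO, and 27.4 and 36.9 under U1 AMO. Both U1 AMO libraries stood above all 4 others, and both scrambled AMO libraries above both untreated ones. The U1 AMO level was 3.79 times the scrambled AMO level for the replicate 1 libraries and 10.9 times for those of replicate 2. The scrambled AMO libraries differed from each other by a larger factor than the U1 AMO libraries did.

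Set against the full 3′ end, these far internal reads made up 0.593% (95% Wilson interval 0.456 to 0.771) and 0.558% (0.444 to 0.701) of the 2 classes together in untreated cells. The shares were 2.33% (2.03 to 2.68) and 1.04% (0.905 to 1.18) under scrambled AMO. They were 5.92% (5.40 to 6.48) and 8.04% (7.71 to 8.37) under U1 AMO. The intervals cover counting error only, since PCR reads without molecular identifiers are not independent molecules. The full 3′ end remained the main product in all libraries, with 84.3% to 91.4% of the reads of all members.

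With all 54 internal members counted, the contrast was smaller. The internal share was 3.87% and 6.80% in untreated cells, 4.16% and 5.66% under scrambled AMO, and 6.83% and 10.2% under U1 AMO. The U1 AMO libraries were the highest, though replicate 1 lay only just above untreated replicate 2. The difference of means between U1 AMO and scrambled AMO was 3.58 percentage points, 2.67 for the replicate 1 libraries and 4.49 for those of replicate 2. Without U1 AMO replicate 2 it was 1.91 points. Most reads of the 7 members within 1 kb came from 1 site, where the groups overlapped.

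**Figure D3:**
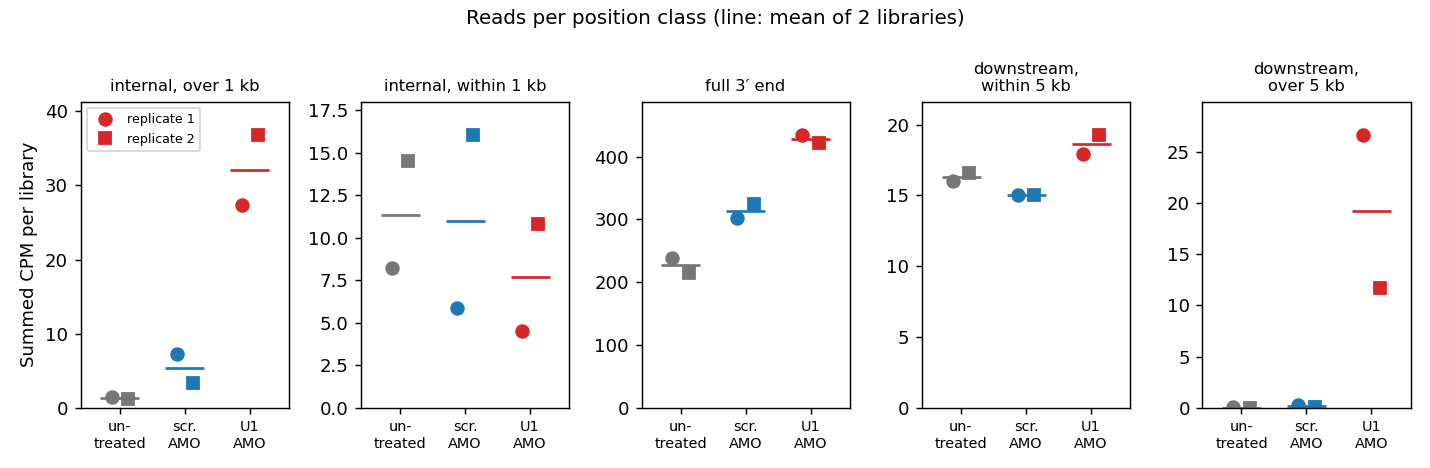
Summed CPM per library in the 5 position classes (circles replicate 1, squares replicate 2, lines the mean of 2 libraries; each panel has its own axis from 0). The U1 AMO libraries stand above the other 4 in both distant classes, at the full 3′ end and, by less, within 5 kb downstream, and overlap with the others at internal sites within 1 kb.

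The strongest far internal site lay 15.5 kb upstream, at chr8:8682029-8682052, with a CATAAA 20 nt before its strongest position. It had 0.519 and 0.265 CPM in untreated cells, 0.559 and 0.771 under scrambled AMO, and 10.6 and 15.9 under U1 AMO. This site was thus in use in all 6 libraries, at a low level outside the U1 AMO group, and the U1 AMO libraries did not overlap with the rest. The U1 AMO level was 19.0 and 20.7 times the scrambled AMO level within the 2 runs. It alone held 38.7% and 43.2% of the far internal reads in the U1 AMO libraries. Its strongest position was the same in both AMO groups, with 39.5% and 37.1% of its reads in the U1 AMO libraries.

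The site 13.6 kb upstream (chr8:8680112-8680166, AGTAAA) was close to silent outside the U1 AMO group. It had 81 and 345 reads under U1 AMO (5.14 and 5.96 CPM), 1 and 0 under scrambled AMO and none in untreated cells. Pooled over libraries, the level was 515.2 times as high (95% counting interval 91.97 to 20396). Both U1 AMO libraries gave nearly the same level although their depths differed.

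The site 16.2 kb upstream (chr8:8682737-8682761, CATAAA) had 33 and 121 reads under U1 AMO, 0 and 4 under scrambled AMO and 1 and 0 in untreated cells. In CPM the U1 AMO libraries stood at 2.10 and 2.09, a pooled ratio to the scrambled AMO of 46.6 (17.8 to 173.1). Here too the U1 AMO libraries agreed closely and did not overlap with the others.

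The remaining named sites of the 5′ part behaved otherwise. The site 17.3 kb upstream (chr8:8683870-8683946, AAGAAA) had 0.570 and 0.0165 CPM in untreated cells, 4.77 and 1.38 under scrambled AMO and 3.94 and 2.52 under U1 AMO. Its AMO groups overlapped, while both stood above untreated cells. The site 14.8 kb upstream (chr8:8681382-8681412, AAGAAA) had 0.708 and 0.723 CPM under scrambled AMO and 0.698 and 0.794 under U1 AMO, against 0.104 and 0.529 in untreated cells. The AMO groups did not separate at either AAGAAA site.

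In the middle of the gene the 2 named sites had AATAAA and lower levels. The site 8.14 kb upstream (chr8:8674704-8674762) had 14 and 98 reads under U1 AMO, 1 and 0 in untreated cells and 0 and 1 under scrambled AMO. The site 6.53 kb upstream (chr8:8673102-8673118) had 11 and 70 reads under U1 AMO and none in the other 4 libraries, at least 32.7-fold higher when the scrambled AMO group is set to a floor of 3 counts in all. At both sites U1 AMO replicate 2 had the higher level, 1.69 against 0.889 CPM and 1.21 against 0.698.

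Far internal reads were concentrated at the 5′ end of the window in all libraries. The 22 members more than 13 kb upstream held 94.5% and 100% of the far internal reads in untreated cells, 99.0% and 94.8% under scrambled AMO, and 89.1% and 83.4% under U1 AMO. The 25 members from 1 to 13 kb upstream summed to 0.0778 and 0 CPM in untreated cells, 0.0745 and 0.177 under scrambled AMO, and 2.98 and 6.11 under U1 AMO. This middle stretch thus held few reads in any library, and nearly all of them came from the U1 AMO group. The limit of 13 kb was set after the values were seen.

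The 40 far internal members not named had 1 to 128 reads over the 6 libraries, with a median of 2.5. Of these, 28 had under 10 reads and 13 a single read, and 22 had reads only under U1 AMO, 5 of them in both U1 AMO libraries. Most were thus too thin to compare between groups. Among all 47, the strongest position carried AATAAA in 8, ATTAAA in 4 and another hexamer in 35.

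By reads, the hexamers of far internal cleavage differed from those of the whole libraries. CATAAA accompanied 46.4% and 49.0% of far internal reads in the U1 AMO libraries, mostly from the site 15.5 kb upstream, and AATAAA 9.28% and 12.5%. Over all reads outside chromosome M, CATAAA accompanied 0.698% and 0.775% and AATAAA 71.6% and 70.5% in the same libraries. Under scrambled AMO the commonest hexamer of far internal reads was AAGAAA, with 76.8% and 61.6%, and CATAAA had 7.73% and 24.6%. AAGAAA had 16.5% and 9.13% under U1 AMO. These shares rest on few sites: the AAGAAA reads came largely from the sites at 17.3 and 14.8 kb.

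Within 1 kb upstream, the site at 0.624 kb (chr8:8667183-8667219, AAGAAA) held nearly all reads. It had 7.65 and 14.1 CPM in untreated cells, 5.44 and 15.5 under scrambled AMO, and 4.38 and 10.1 under U1 AMO. Replicate 2 was the higher in each group, and the groups overlapped. Within the runs the U1 AMO level was 0.805 and 0.651 times the scrambled AMO level. The strongest position, 8667201, was shared by all 6 libraries. The other 6 members within 1 kb had 4 to 73 reads in all.

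Within 5 kb downstream the groups stood close together. The 11 members summed to 16.02 and 16.6 CPM in untreated cells, 15.0 and 15.0 under scrambled AMO, and 18.0 and 19.3 under U1 AMO. Both U1 AMO libraries were thus above the other 4, at 1.19 and 1.29 times the scrambled AMO level within the 2 runs. Most reads came from 3 members. The member at 1.50 kb (chr8:8665071-8665100, TATAAA) had 10.7 and 11.96 CPM in untreated cells, 8.83 and 9.85 under scrambled AMO and 11.2 and 13.2 under U1 AMO. The U1 AMO libraries lay above both scrambled AMO libraries and overlapped with untreated cells. The member at 0.269 kb (chr8:8666291-8666383, AATAAA) stood between 4.13 and 5.36 CPM in all 6 libraries, with overlapping groups. The member at 1.34 kb (chr8:8665218-8665236, TATAAA) had 0.882 and 0 CPM in untreated cells, 0.484 and 0.787 under scrambled AMO and 1.08 and 1.16 under U1 AMO, where both libraries stood above the other 4. The other 8 had 1 to 29 reads each.

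More than 5 kb downstream, cleavage was close to absent without U1 AMO. The 19 members summed to 2 and 0 reads in untreated cells and 6 and 4 under scrambled AMO, against 420 and 679 under U1 AMO. In CPM the U1 AMO libraries had 26.7 and 11.7, and no other library exceeded 0.223. The U1 AMO level was 119.3 and 182.5 times the scrambled AMO level within the 2 runs. Unlike the far internal members, these were higher in U1 AMO replicate 1 than in replicate 2.

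The strongest of them, 8.08 kb downstream (chr8:8658481-8658503, AATAAA), had 280 and 403 reads under U1 AMO, 1 and 0 under scrambled AMO and 1 and 0 in untreated cells. That is 17.8 and 7.0 CPM under U1 AMO, and a pooled ratio of 826.0 (95% counting interval 147.8 to 32673). It was the second strongest member, after the full 3′ end, in U1 AMO replicate 1. The member at 8.71 kb (chr8:8657857-8657874, AATAAA) had 42 and 94 reads under U1 AMO and none elsewhere, at least 54.8-fold higher on the same floor of 3 counts. The member at 7.78 kb (chr8:8658794-8658818, ATTAAA) had 63 and 94 reads against 2 and 0 under scrambled AMO, and that at 8.81 kb (chr8:8657757-8657788, AAGAAA) 15 and 28 against 1 and 1. Untreated cells had no reads at either.

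In contrast to the far internal class, AATAAA accompanied 76.9% and 73.2% of the far downstream reads in the U1 AMO libraries, and ATTAAA 16.9% and 20.3%. CATAAA had 0% and 0.295% there. The 15 far downstream members not named had 1 to 57 reads each, and 9 of them had a single read.

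In the 50 kb downstream of the window, 2 minus-strand clusters held at least 100 reads over the 6 libraries. The more distant one, at chr8:8617418-8617460, stood at 2.15 and 6.22 CPM in untreated cells, 22.3 and 8.87 under scrambled AMO and 24.1 and 14.1 under U1 AMO. It lies 49159 nt downstream of the Arglu1 full 3′ end, about the gap between the genes plus the 44008 nt RefSeq length of Efnb2. The AMO groups overlapped there, and the difference between them did not pass the edgeR quasi-likelihood test (adjusted p = 1.0; 0.187 with the replicate number as a term in the 4 AMO libraries). The other, at chr8:8617882-8617897, stood at 1.45 and 1.14 CPM in untreated cells, 8.01 and 4.98 under scrambled AMO and 6.67 and 6.09 under U1 AMO. Its AMO groups overlapped as well (edgeR, adjusted p = 1.0). It was called higher under U1 AMO than in untreated cells (edgeR, adjusted p = 0.0403), a contrast in which the first cluster did not pass (0.0861). In that contrast 4.39% of all clusters were called higher. Its log2 change from untreated cells was 2.24 under U1 AMO and 2.27 under scrambled AMO, the latter not called (edgeR, adjusted p = 0.266). Run and treatment cannot be told apart in either contrast.

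**Figure D4:**
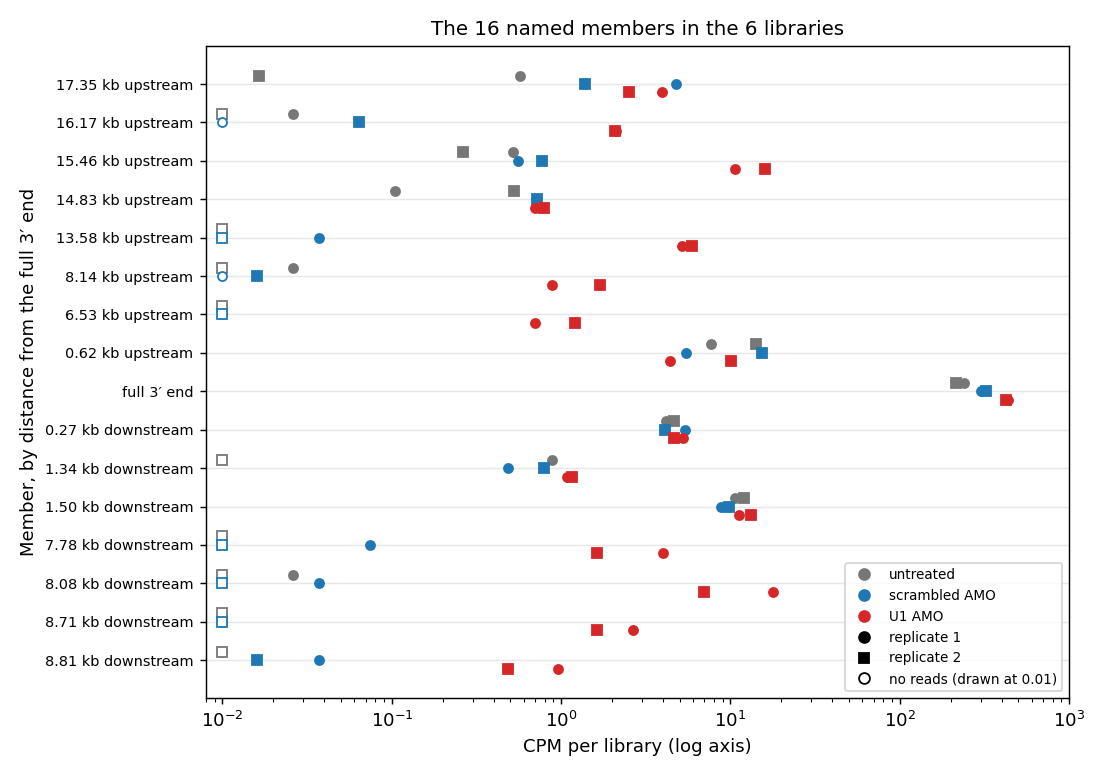
CPM per library (log axis) of the 16 named members, ordered from the 5′ side to the 3′ side; circles are replicate 1, squares replicate 2 and open symbols libraries without reads. Both U1 AMO libraries stand clear of the other 4 at the full 3′ end, at 5 internal sites, at the site 1.34 kb downstream and at the 4 far downstream sites. At the other sites they overlap with at least 1 group. Some members are named because they were called higher under U1 AMO, and the share of all clusters with this pattern is not given here. Nothing is therefore read from these counts.

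In the fit across all clusters (edgeR quasi-likelihood test), 23 of the 85 members passed the filter on low counts. Against the scrambled AMO, 3 of them were called higher under U1 AMO, at 15.5 and 13.6 kb upstream and 8.08 kb downstream, and none lower; over all 80049 clusters tested 0.666% were called higher. Against untreated cells, 9 members were called higher under U1 AMO and none lower, where 4.39% of all clusters were called higher; these were 5 far internal and 4 far downstream members. The locus was chosen on this contrast, so nothing is read from these counts. With the replicate number as a term in the 4 AMO libraries, 16 of 22 members tested were called higher, the full 3′ end among them, where 13.4% of all clusters were. The 16 comprised 10 far internal members, the full 3′ end and 5 far downstream members. With the replicate number as a term in all 6 libraries no member was called, nor was any other cluster (0.0%; at an unadjusted p under 0.05 there were 5611 higher and 65 lower). No member was called when replicate 2 of the scrambled AMO (0.0% of all clusters) or of the U1 AMO (0.0762%) was left out. Leaving out scrambled AMO replicate 1 gave 1 (0.102% of all clusters) and leaving out U1 AMO replicate 1 gave 7 (1.06%). Without untreated replicate 1 or 2 there were 9 (2.48%) and 10 (3.43%). The share over all clusters thus moved with the members' count in these fits. Without the filter on low counts, 10 of 85 members were called against the scrambled AMO (0.311% of all clusters) and 14 against untreated cells (0.688%). DESeq2 called 10 and 14 of the 23 (3.91% and 10.1%).

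Scrambled AMO against untreated cells gave no call among the 23 members by edgeR (adjusted p under 0.05), where 0.0% of all clusters were called higher. At an unadjusted p under 0.05 there was 1 member, where 6818 of all 80049 clusters tested were higher and 3672 lower. DESeq2 also called none of the members, and 1.71% of all clusters higher. Without the filter edgeR called 1 member, at 17.3 kb upstream, and 0.118% of all clusters. The far internal level was 4.03 times as high in the means under scrambled AMO, 5.31 ± 2.71 against 1.32 ± 0.155 CPM (SD, n = 2), and most of this lay at the site 17.3 kb upstream.

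Levels were also ordered by library, without a fit. In 26 of the 85 members both U1 AMO libraries stood above both scrambled AMO libraries, where 6.53% of all clusters did. In 3 members they stood below and in 56 the groups overlapped. The shares of all clusters with these other patterns are not given here, so these counts cannot be judged. Among members with at least 10 reads, 20 of 36 stood above and 2 below, where 19.5% and 13.1% of all such clusters did. The 10 reads were counted over all libraries together, so a member could pass through its U1 AMO reads alone. Reads in both U1 AMO libraries and in no other library were found at 9 members, where 2.19% of all clusters had this pattern. The locus was chosen with these levels known, so nothing is read from these counts.

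At this locus each U1 AMO library held more distinct cleavage positions than the deeper scrambled AMO library of the same run. Over the whole libraries this held for replicate 2 (1193338 against 1039972) and not for replicate 1 (683584 against 804486). Over all members there were 110 and 52 positions in untreated cells, 129 and 164 under scrambled AMO, and 208 and 357 under U1 AMO. U1 AMO replicate 1, with 15752080 reads, thus had more positions than scrambled AMO replicate 2, with 62257923. For far internal members the numbers were 18 and 7, 37 and 37, and 75 and 174. For far downstream members they were 2 and 0, 5 and 4, and 55 and 62. At the full 3′ end they were 23 and 17, 30 and 31, and 29 and 31. The AMO groups overlapped at the full 3′ end and in both near classes, and did not in the far classes.

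Compared with other strong 3′ ends, the internal reads of Arglu1 differed between the AMO groups by a moderate amount. The log2 ratio of reads in the 17394 nt upstream to reads of the 3′ end, with 0.5 reads added to each, was higher under U1 AMO by 0.76 in the run of replicate 1 and 0.91 in that of replicate 2. The mean of 0.83 lay at percentile 75.4 of the 6432 strong 3′ ends, whose median was 0.24 (quartiles -0.10 and 0.81). In 49.7% of them the ratio was higher in both runs. This rank too is a description only, since the locus was chosen with its levels known. The Arglu1 sum includes the site at 0.624 kb, which stood at 0.805 and 0.651 times the scrambled AMO level within the runs. The stretches were taken without annotation, so at other loci they may reach beyond the gene.

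The 3 strong 3′ ends whose ratios over the 6 libraries were nearest to those of Arglu1 (Euclidean distance on the log2 scale) were chr7:3154647-3154672 on the minus strand, chr8:26685250-26685277 on the plus strand and chr7:134123998-134124028 on the plus strand. Their distances were 0.68, 0.73 and 0.73. At the first, upstream reads per 100 reads of the 3′ end were 3.59 and 5.93 in untreated cells, 5.94 and 7.18 under scrambled AMO and 8.51 and 10.3 under U1 AMO, against 4.02 and 7.29, 4.34 and 6.00, and 7.33 and 11.3 at Arglu1. The 3′ ends of these 3 loci did not share the higher level under U1 AMO: their log2 changes were -0.28, -0.17 and -0.15, against 0.45 at Arglu1.

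The opposite strand, which the choice of members did not use, was nearly empty in the same window. The plus strand held 4 clusters with 5 reads in all, from U1 AMO replicate 2, and no read in the other 5 libraries. The level was 0.0432 ± 0.0610 CPM under U1 AMO and 0 under scrambled AMO (SD, n = 2; exact permutation test, two-sided, p = 1.0; the smallest p this design allows is 0.333). A count of 0 allows up to 3 reads per library, so no difference was detectable at this depth.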

How the data were processed

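Per the submitters' processing notes, reads were handled with cutadapt and Bowtie on genome build mm9; for versions, settings and any filter on positions: not given in the sources used here. The deposited table of a library lists cleavage positions by strand, with raw read counts, a hexamer, the hexamer's distance from the position (in nt) and a deposited score from 0 to 10 whose meaning is not given. Clusters were built by joining same-strand positions at most 24 nt apart. Counts were tested over all clusters of the genome with edgeR 4.0.16 (R 4.3.3; quasi-likelihood test, TMM, filterByExpr, 3 groups in one fit, Benjamini-Hochberg adjusted p under 0.05), with DESeq2 1.42.0 as an alternative. The fit was also run on simulated counts. Their libraries were drawn independently, unlike the AMO libraries with their shared runs, so nothing is read from that simulation. Shares, ratios and CPM were computed with numpy 2.4.6, scipy 1.17.1 and pandas 2.3.3 in Python 3.11.15. The members and tests were chosen with earlier results of these data known. Named were the full 3′ end, the 12 other members with the highest mean CPM over the 6 libraries, and any member called in a contrast. Reads numbered 38569397 and 60473882 in untreated cells, 26846406 and 62257923 under scrambled AMO, and 15752080 and 57925358 under U1 AMO. No genome of build mm9 was used; RefSeq tables of GRCm38 gave gene names, order and lengths only, and the list of other splicing genes was not analysed here.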

Additional observations from a re-analysis of the deposited data

Results flagged for a closer look

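The stretch of 10 kb on the 5′ side of the window is outside the members and held reads on both strands above the level of every control library under U1 AMO. On the opposite strand, 6 clusters summed to 0.952 and 0.811 CPM under U1 AMO (mean 0.882), 0.112 and 0.177 under scrambled AMO and 0.0259 and 0.132 in untreated cells (exact permutation test of U1 AMO against scrambled AMO, two-sided, p = 0.333, the smallest possible). Most of these reads lay at chr8:8691106-8691117 on the plus strand (AATAAA), with 9 and 30 reads under U1 AMO, 2 and 6 under scrambled AMO and none in untreated cells. In the fit across all clusters its log2 change from scrambled AMO to U1 AMO was 2.57, which did not pass the edgeR test (adjusted p = 0.439). With the replicate number as a term in the 4 AMO libraries it passed (edgeR, adjusted p = 0.00605), where 13.4% of all clusters were called higher. It lies 24529 nt upstream of the full 3′ end, slightly more than the RefSeq length of the gene. On the strand of the gene, 13 clusters summed to 0.444 and 0.449 CPM under U1 AMO (mean 0.447), 0.112 and 0.0321 under scrambled AMO and 0 and 0.314 in untreated cells (exact permutation p = 0.333). Both strands were flagged because both U1 AMO libraries stood above every other library, which fixes the permutation p at its smallest value. Nothing is read from these p-values, or from the edgeR tests of the cluster in the flagged stretch.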

How the results depend on the processing

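Between U1 AMO and scrambled AMO, the internal share differed by 3.58 points and the log2 level of the full 3′ end by 0.45. Both differences kept their direction under all alternatives that kept this member as the full 3′ end. Leaving out a library gave 1.91 to 5.25 points, 0.40 to 0.50 and, for the opposite strand, 0 to 0.0863 CPM. Leaving out positions with a deposited value over 5 removed all but 0.00768% to 0.0744% of the reads of the full 3′ end. The rule then took another member as the full 3′ end. The 15.1 points and the log2 change of 0.40 under this setting belong to that member and cannot be set beside the others. Counting only internal members over 1 kb away gave 5.29 points, an alternative chosen after seeing the data. The 3 calls for U1 AMO against scrambled AMO (0.666% of all clusters called higher) became 10 without the low-count filter (0.311%) and 10 with DESeq2 (3.91%). They stayed at 3 in number with RLE factors and with positions joined at 10 or 50 nt. With the replicate block they were 16 in the 4 AMO libraries (13.4%) and 0 in all 6 (0.0%). Leaving out a library gave 0 to 10 (0.0% to 3.43%), the untreated ones being a choice made after seeing the data. Between U1 AMO and untreated cells, the 9 calls (4.39%) became 14 without the filter (0.688%), 14 with DESeq2 (10.1%), 0 with the replicate block (0.0%) and 3 to 12 without a library (1.16% to 6.96%). Scrambled AMO against untreated had 1 call without the filter (0.118%) and 0 with the replicate block, with DESeq2 and without any library. The cause of these differences was not tested. The labels do not say that a replicate number marks a shared run, but the read names do for the AMO groups, whose deviations from the group means correlated at r = 0.81 across 29563 clusters (genome features, not replicates). With 2 libraries a group, members with few reads could not be compared.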
